A study of Homo sapiens with 14 samples.

Results

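The mitochondrial translation factor genes are the 10 nuclear genes MTIF2, MTIF3, MTFMT, TUFM, TSFM, GFM1, MTRF1, MTRF1L, MRRF and GFM2. They were chosen by name and not by a rule on measured values, although earlier results of these data were known. All 10 were found among the 19962 protein-coding genes of the GENCODE annotation. The Proteintech antibody, which is polyclonal and raised against ZNF143, was used for ChIP-seq in ZNF143-FKBP HEK293T cells, a human embryonic kidney line in which ZNF143 carries the FKBP12F36V tag and can be degraded with dTAG-V1. Of the samples, 4 received no treatment and 4 received dTAG-V1 at 0.5 µM for 30 min, and both groups carry the tag. The labels name 1 clone for all samples, so that nothing here separates the clone from the line. CTCF ChIP-seq of the same cells was not analysed here.

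Mitochondria translate the mRNAs of their own genome with a ribosome and a set of factors that are encoded in the nucleus. Translation starts with the initiation factors MTIF2 and MTIF3 and with a formylated methionyl-tRNA that is made by MTFMT. TUFM brings the aminoacyl-tRNAs to the ribosome, TSFM exchanges the nucleotide on TUFM, and GFM1 moves the ribosome along the mRNA. MTRF1L and MTRF1 are release factors, and MRRF and GFM2 take the ribosome apart after release. ZNF143 is a zinc finger transcription factor that binds near transcription start sites (TSSs) through the motifs SBS1 and SBS2. CTCF is another zinc finger protein, which binds a long motif of its own at chromatin loop anchors and insulators. The study asked whether the Proteintech antibody also yields signal at CTCF sites, and motifs of both proteins were therefore searched in the peaks of the 10 genes.

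Each condition is represented by 1 list of peaks, 20429 peaks for untreated cells and 35287 for dTAG-V1. The 2 lists analysed here pool the 4 samples of a condition and hold no value for each of them, so that the values below have no replicate error and no test was made. The depth of the libraries is unknown. A score is given for each peak, which grows with the significance of the call, together with a fold enrichment over the local background. Both are on the scale of their own list and were not compared between lists. Peaks were instead ranked within each list, and the score percentile is the percentage of the list that the peak outranks. A percentile depends on the other peaks in the list, so that a higher percentile in the dTAG-V1 list is not a stronger signal. Over the 7424 protein-coding genes with a promoter peak in each list, the percentile of the best peak was higher in the dTAG-V1 list by a median of 2.9 points. One in 10 of these genes moved by -21.4 points or less, and one in 10 by 31.0 or more. The methods required detection in all 4 replicates for the untreated condition and in any 1 of 4 for the dTAG-V1 condition, so that the lists also differ in how a peak entered them.

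The strongest peaks of the 10 genes lay at MTRF1 and TUFM, and their summits fell on sequences with overlapping SBS1 and SBS2 hits. The SBS2 hits of these genes are shown first because the highest scores lie there. Sequences are from hg38 and are written 5′ to 3′ on the strand of the motif, with the site in capitals and 8 bases on either side.
MTRF1 site on the plus strand, chr13:41263843-41263863: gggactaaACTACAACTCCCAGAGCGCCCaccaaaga
MTRF1 site on the minus strand, chr13:41263868-41263888: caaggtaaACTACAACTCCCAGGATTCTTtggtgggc
TUFM site nearer the summit, chr16:28846593-28846613, minus strand: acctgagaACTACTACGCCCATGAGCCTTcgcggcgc
TUFM site nearer the TSS, chr16:28846515-28846535, minus strand: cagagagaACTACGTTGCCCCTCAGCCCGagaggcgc
The SBS2 matrix that was learned from the peaks has ACTACANTTCCCAGNATNCCN as its most frequent letters, where N marks a position without a letter in more than 50% of the sites. Of the 17 positions with a letter, the plus strand site at MTRF1 matched 14 and the minus strand site 15. At TUFM, the site nearer the summit matched 11 and the other 12. A match here is a description of the letters in the window and does not show that ZNF143 was bound to them.

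Both MTRF1 sites begin with the same 14 letters, ACTACAACTCCCAG, and they face each other on opposite strands with 4 bp between them, so that together they span 46 bp. The match to the SBS2 matrix had a p-value of 8.9e-10 for the plus strand site and of 1.9e-09 for the other, from the base frequencies of the genome. The middles of the sites lay 2 bp and 23 bp from the summit. SBS1 hits overlapped both sites, with p 6.5e-06 at the plus strand site and p 3e-07 at the other. The stretch around the summit, chr13:41263735-41263975, is given on the strand of the gene with both sites in capitals, and it lies upstream of the canonical TSS.
MTRF1: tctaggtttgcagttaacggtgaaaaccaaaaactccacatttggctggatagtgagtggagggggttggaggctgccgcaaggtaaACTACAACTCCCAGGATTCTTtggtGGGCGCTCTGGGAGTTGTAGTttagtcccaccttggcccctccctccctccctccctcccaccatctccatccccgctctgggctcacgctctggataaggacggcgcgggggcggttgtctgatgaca
Facing pairs of SBS2 hits within 50 bp, each at p 1e-05 or below, were found in 43 of the 7701 promoter peaks of protein-coding genes in the untreated list (0.558%). The dTAG-V1 list held 40 such peaks of 10296 (0.389%). MTRF1 was the member with such a pair in each list.

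The TUFM sites are instead in tandem, on the strand of the gene, with 57 bp between them and a span of 99 bp. They were identical at 14 of 21 positions, against 15 of 21 for the pair at MTRF1. The stretch chr16:28846507-28846621 is given on the strand of the gene.
TUFM: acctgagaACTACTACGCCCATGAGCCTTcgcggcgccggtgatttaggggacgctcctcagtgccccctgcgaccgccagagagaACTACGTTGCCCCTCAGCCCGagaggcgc
The p-value of the match was 5.5e-06 for the site nearer the summit and 1.2e-05 for the other, so that the TUFM sites are weaker matches than those at MTRF1. MTRF1 lies on an odd-numbered autosome, from which the matrix was learned, and TUFM does not. Their middles lay 9 bp and 69 bp from the untreated summit. An SBS1 hit with p 4.7e-06 overlapped the site nearer the summit, and its middle was closer, at 4 bp from the untreated summit.

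A site of 3 other members is shown for comparison. TSFM held a CTCF hit upstream of its TSS (chr12:57782678-57782694, plus strand, p 6.8e-10). GFM1 held an SBS2 hit that overlaps the coding part of exon 1 (chr3:158644637-158644657, minus strand, p 1.7e-07). An SBS2 hit in intron 1 of MTRF1L (chr6:152999554-152999574, plus strand, p 3.9e-06) lay near the summit of a peak that was found in the untreated list only. Another SBS2 hit with p 3e-06 (chr6:152999390-152999410) overlapped the end of the same peak, 175 bp from the summit.
TSFM, CTCF: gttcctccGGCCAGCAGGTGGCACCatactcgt
GFM1, SBS2: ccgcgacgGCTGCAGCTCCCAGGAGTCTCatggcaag
MTRF1L, SBS2: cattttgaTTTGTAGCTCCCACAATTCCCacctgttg
The run TCCCA of the SBS2 matrix is present in the GFM1 and MTRF1L sites and in both MTRF1 sites, and it is absent from both TUFM sites.

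Promoter peaks, whose centre lies at most 2 kb before or 1 kb after any annotated TSS of the gene, were found at 8 of the 10 genes in the untreated list. The same was true of 40.6% of all protein-coding genes. The dTAG-V1 list held a promoter peak for 9 of the 10 genes, against 48.3% of all genes. Overlapping promoter peaks in both lists were found at 8 genes (MTIF2, MTIF3, TUFM, TSFM, GFM1, MTRF1, MTRF1L and GFM2), against 35.7% of all genes. At 0 members did every untreated promoter peak lack an overlapping one in the dTAG-V1 list, a class that held 4.90% of all genes. MRRF was the 1 member with a promoter peak in the dTAG-V1 list and none overlapping it in the untreated list. This class held 12.6% of all genes. MTFMT had no peak in either list. The members have a median of 9.5 annotated TSSs and all protein-coding genes a median of 5, so that members had more places at which a peak could be counted. With the canonical TSS alone, the counts of members stayed at 8, 9 and 8, and the shares of all genes were 35.4%, 41.2% and 31.2%.

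**Figure D1:**
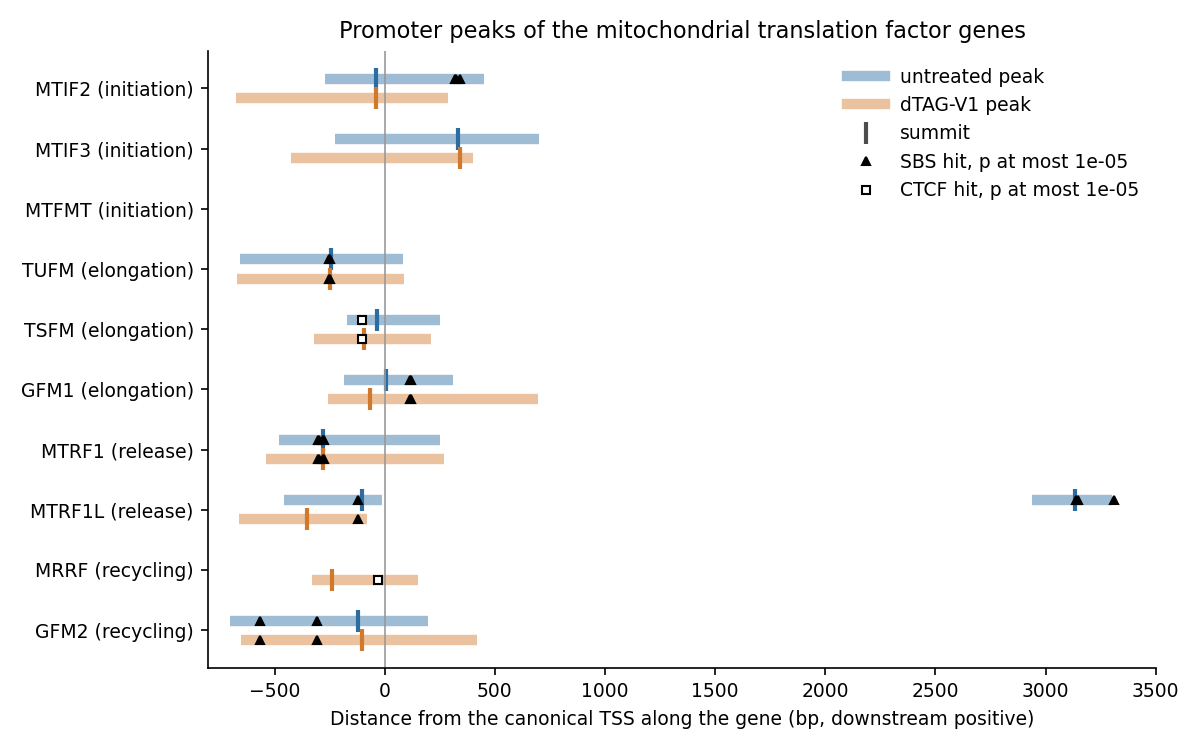
Promoter peaks of the 10 genes, ordered by role, as bars along the distance from the canonical TSS in bp, with the untreated list in blue and the dTAG-V1 list in orange. Vertical ticks are summits, filled triangles SBS hits and open squares CTCF hits at p 1e-05 or below. The bars of both lists overlap at 8 genes, MRRF has a dTAG-V1 bar only, MTFMT has none, and MTRF1L has an additional untreated bar about 3 kb downstream.

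The best promoter peak was in the highest decile of scores of the untreated list at 3 members, MTRF1, TUFM and GFM2, against 10.1% of all protein-coding genes. For the dTAG-V1 list it was 5 members, the same 3 with TSFM and GFM1, against 13.4% of all genes. One highly ranked gene stood in each of elongation, release and recycling, and none among the initiation genes in the untreated list.

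Among the initiation genes, MTIF2 had the peak with the highest score. MTIF2 (chr2, minus strand, TSS at 55269231) encodes the GTPase that brings the initiator tRNA to the small ribosomal subunit. Its untreated peak, chr2:55268778-55269503, had a score of 493, a fold enrichment of 6.9 and rank 5332, at percentile 73.9. The dTAG-V1 peak, chr2:55268944-55269907, had a score of 315, a fold enrichment of 5.44 and rank 5276, at percentile 85.0. Both summits lay at the same base, 41 bp upstream of the canonical TSS. The best SBS hit of the untreated peak was an SBS1 hit with p 9.6e-09, yet it lay 364 bp from the summit, in intron 1. The dTAG-V1 peak begins beyond this hit and does not contain it. Closest to the summit, at 7 bp, was a weaker SBS2 hit with p 3.1e-05.

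MTIF3 (chr13, minus strand, TSS at 27450564) encodes a factor that keeps the ribosomal subunits apart before initiation. The untreated peak, chr13:27449864-27450788, had a score of 244, a fold enrichment of 4.12 and rank 7913, at percentile 61.2. In the dTAG-V1 list the peak, chr13:27450164-27450991, had a score of 78, a fold enrichment of 2.7 and rank 23184, at percentile 34.1. Its change in percentile was -27.1 points, which is below the -21.4 points given above for all genes with both peaks. The summits lay in intron 1 and were 13 bp apart. The untreated peak had no SBS hit, and it was the 1 member promoter peak of this list without one. An SBS1 hit with p 1.4e-05 overlapped the far end of the dTAG-V1 peak, 766 bp from its summit. A CTCF hit with p 4e-05 lay 212 bp from the untreated summit. The TSS of the lncRNA ENSG00000289827, on the opposite strand, lies 364 bp from that of MTIF3 and in the same peaks, so that the peaks cannot be assigned to MTIF3 alone.

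MTFMT (chr15, minus strand, TSS at 65029639) encodes the enzyme that formylates the methionyl-tRNA. The nearest summit was 39326 bp away in the untreated list and 39340 bp away in the dTAG-V1 list. The sequence within 500 bp of its canonical TSS nevertheless held an SBS1 hit with p 1e-06, 455 bp downstream. Weaker hits were closer to the TSS, an SBS2 hit (p 2.1e-05) 39 bp upstream and a CTCF hit (p 1.2e-05) 41 bp upstream. SBS hits at p 1e-05 or below were present in 68.5% of such windows over all protein-coding genes. Of the genes with such a window, 45.5% had a promoter peak in the untreated list, against 29.8% of the genes without. A hit thus did not by itself mark a peak.

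Among the elongation genes, TUFM stood apart from TSFM and GFM1. TUFM (chr16, minus strand, TSS at 28846348) encodes the elongation factor that delivers aminoacyl-tRNAs. Its untreated peak, chr16:28846263-28847003, had a score of 47646, a fold enrichment of 31.71 and rank 705, at percentile 96.6. The dTAG-V1 peak, chr16:28846262-28847019, had a score of 24785, a fold enrichment of 28.76 and rank 409, at percentile 98.8. The summits were 1 bp apart, 246 bp and 247 bp upstream of the TSS. TUFM thus had the highest fold enrichment of the members in each list, although MTRF1 had the higher score. SH2B1, which encodes a signaling adaptor, starts on the opposite strand 252 bp from the TUFM TSS. The peaks lie in the promoter windows of both genes, and the summit is nearer to the TSS of SH2B1, so that these values belong to a shared region.

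TSFM (chr12, plus strand, TSS at 57782787) encodes the exchange factor of TUFM. The untreated peak, chr12:57782614-57783038, had a score of 566, a fold enrichment of 6.74 and rank 4968, at percentile 75.7. Its counterpart in the dTAG-V1 list, chr12:57782466-57782995, had a score of 611, a fold enrichment of 7.35 and rank 2916, at percentile 91.7. The CTCF hit shown above lay 65 bp from the untreated summit and 9 bp from the dTAG-V1 summit. No SBS hit at p 1e-05 or below was found in either peak, and the closest weaker one was 145 bp from the untreated summit. TSFM was the member whose dTAG-V1 summit lay within 50 bp of a CTCF hit at p 1e-05, as did 15.1% of all promoter peaks in that list. In the untreated list the share was 7.77% of all promoter peaks and no member.

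GFM1 (chr3, plus strand, TSS at 158644527) encodes the elongation factor that drives translocation. The untreated peak, chr3:158644341-158644836, had a score of 571, a fold enrichment of 6.81 and rank 4951. This is next to the value of TSFM, and the percentile was 75.7 for each of them. The dTAG-V1 peak, chr3:158644268-158645222, had a score of 671, a fold enrichment of 7.57 and rank 2763, at percentile 92.2. The untreated summit lay 7 bp downstream of the TSS, in the untranslated part of exon 1, and the dTAG-V1 summit 65 bp upstream. The nearest SBS hit at p 1e-05 or below was 108 bp from the untreated summit and 180 bp from the dTAG-V1 summit. In turn, a weak CTCF hit (p 4.2e-05) was 107 bp from the untreated summit and 35 bp from the dTAG-V1 summit. A weak CTCF hit at TSFM (p 2.8e-05) went the other way, at 26 bp from the untreated summit and 82 bp from the dTAG-V1 summit. The summits of the lists were 56 bp apart at TSFM and 72 bp apart at GFM1. With 1 list per condition, the error of a summit position is unknown, and whether these shifts exceed it was not tested.

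Of the release factors, MTRF1 ranked higher than MTRF1L in both lists. MTRF1 (chr13, minus strand, TSS at 41263576) and MTRF1L (chr6, minus strand, TSS at 153002709) encode release factors of similar sequence. The untreated peak of MTRF1, chr13:41263325-41264058, had a score of 109846, a fold enrichment of 31.15 and rank 185, at percentile 99.1. Its dTAG-V1 peak, chr13:41263305-41264117, had a score of 37580, a fold enrichment of 26.77 and rank 204, at percentile 99.4. Both summits lay at the same base, 279 bp upstream of the TSS. The MTRF1 peaks held no CTCF hit at p 5e-05.

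The promoter peak of MTRF1L in the untreated list, chr6:153002722-153003165, had a score of 127, a fold enrichment of 2.77 and rank 11540, at percentile 43.4. The dTAG-V1 peak, chr6:153002790-153003371, had a score of 107, a fold enrichment of 2.68 and rank 18498, at percentile 47.4. The MTRF1L percentiles thus fell below the medians of all promoter peaks, which were 62.2 for the untreated list and 52.8 for the dTAG-V1 list. The untreated summit lay 101 bp upstream of the TSS, and 22 bp from an SBS1 hit with p 7.9e-06. The dTAG-V1 summit lay 352 bp upstream and 229 bp from that hit, a shift of 251 bp, which was the largest shift among the members. This hit was found with the SBS1 matrix only and contains the run CCGGAAG, which is also part of the ETS letters described below.
MTRF1L, SBS1: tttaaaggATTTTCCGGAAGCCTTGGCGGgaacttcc

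A separate untreated peak lay in intron 1 of MTRF1L, chr6:152999409-152999772, with its summit 3134 bp downstream of the canonical TSS. Its score was 692, its fold enrichment 5.75 and its rank 4519, at percentile 77.9, which is above the value at the canonical promoter. It counts as a promoter peak because its centre lies at position -848 bp, upstream, from an alternative TSS. The SBS2 hit shown above was 11 bp from the summit. No peak of the dTAG-V1 list overlapped it. MTRF1L was the member with an untreated promoter peak that had no overlapping peak in the dTAG-V1 list, while its other promoter peak was in both lists.

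Of the recycling genes, GFM2 ranked high and MRRF low. GFM2 (chr5, minus strand, TSS at 74767117) encodes the GTPase that acts with MRRF in ribosome recycling. The untreated peak, chr5:74766920-74767821, had a score of 10859, a fold enrichment of 19.01 and rank 1736, at percentile 91.5. The dTAG-V1 peak, chr5:74766699-74767768, had a score of 1369, a fold enrichment of 8.77 and rank 2001, at percentile 94.3. The summits lay 120 bp and 103 bp upstream of the TSS. GFM2 had no SBS hit at p 1e-05 within 50 bp of either summit. The nearest such hit, an SBS1 hit with p 8.1e-06, was 187 bp from the untreated summit, and weaker SBS hits lay at 25 bp (p 4.4e-05) and 30 bp (p 3.4e-05). NSA2, a ribosome biogenesis gene, starts on the opposite strand 126 bp away, and the peaks lie in the promoter windows of both genes.

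MRRF (chr9, plus strand, TSS at 122264882) encodes the ribosome recycling factor. Its dTAG-V1 peak, chr9:122264550-122265031, had a score of 56, a fold enrichment of 2.6 and rank 27434, at percentile 22.0, the lowest of the members' promoter peaks in that list. The lowest score in either list is 20, and MRRF is thus close to the lower end of the list. A CTCF hit with p 6.8e-06 was 209 bp from the summit. The closest untreated summit was 147368 bp away. RBM18, which encodes an RNA-binding protein, starts on the opposite strand 42 bp from the MRRF TSS and shares the peak. Whether ZNF143 depletion or the looser rule for the dTAG-V1 list placed this peak in 1 list cannot be told apart.

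**Figure D2:**
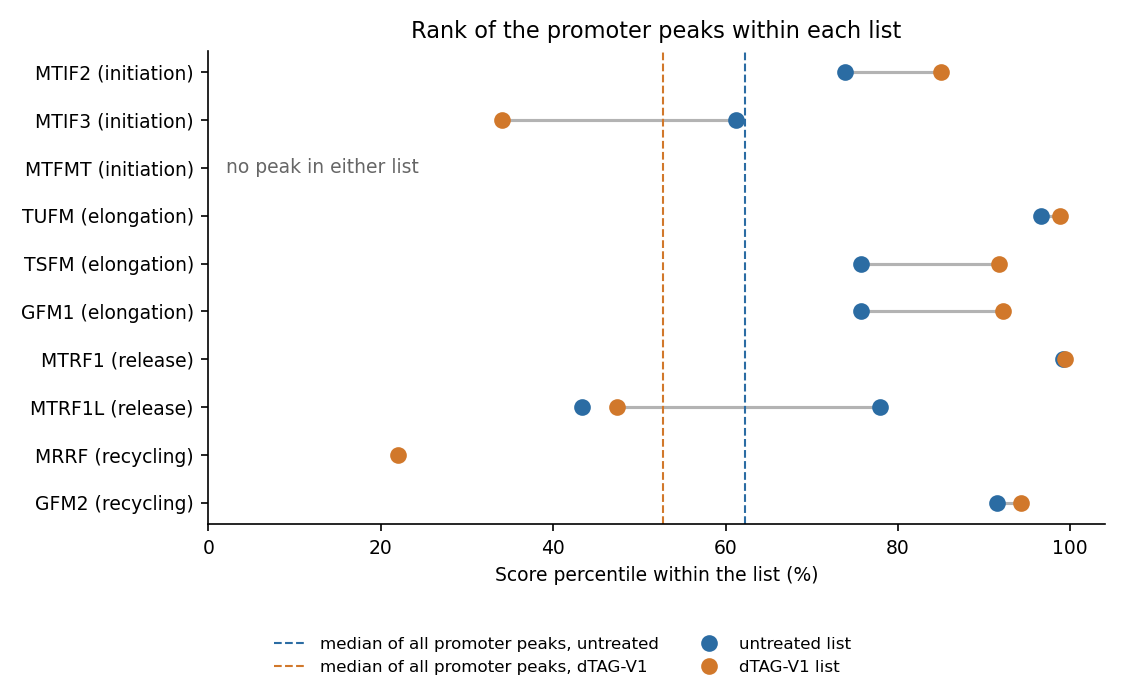
Score percentile of each promoter peak within its list, in percent, with untreated peaks in blue and dTAG-V1 peaks in orange. Grey lines join the best peaks of a gene, and dashed lines mark the medians of all promoter peaks, 62.2 and 52.8. MTRF1, TUFM and GFM2 lie above 90 in both lists, TSFM and GFM1 in the dTAG-V1 list only, and MRRF at 22.0.

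The order of the members in the untreated list, by the score of their best promoter peak, was MTRF1, TUFM, GFM2, MTRF1L (in intron 1), GFM1, TSFM, MTIF2 and MTIF3. In the dTAG-V1 list it was MTRF1, TUFM, GFM2, GFM1, TSFM, MTIF2, MTRF1L, MTIF3 and MRRF. The first 3 genes were in the same order in both lists. Whether neighbors in these orders differ beyond the spread between samples was not tested. Between the lists, GFM1 was 16.4 points and TSFM 16.1 points higher in percentile in the dTAG-V1 list, MTIF2 11.1, GFM2 2.8, TUFM 2.3 and MTRF1 0.3. The change was -27.1 points at MTIF3. For the best peak of MTRF1L it was -30.4 points, which compares the intronic peak of the untreated list with the canonical promoter peak of the other list.

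The distance between the summits of both lists differed among the members. The summits of overlapping peaks were at most 20 bp apart at 5 of 8 members, MTRF1, MTIF2, MTIF3, TUFM and GFM2. This was the case for 44.3% of the 6441 overlapping promoter peaks of protein-coding genes, with a median shift of 27 bp. The remaining members had shifts of 56 bp (TSFM), 72 bp (GFM1) and 251 bp (MTRF1L). Whether the members differ from all promoter peaks in this respect was not tested.

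SBS hits at p 5e-05 or below were found in 8 of 9 untreated member promoter peaks and in 9 of 9 under dTAG-V1. The shares of all promoter peaks were 80.5% and 68.5%. At this threshold most promoter peaks hold a hit, and the counts of members are close to those shares. At p 1e-05, it was 7 of 9 against 55.8% in the untreated list and 5 of 9 against 41.2% in the dTAG-V1 list. CTCF hits at p 5e-05 were found in 4 of 9 and 5 of 9 member peaks, against 43.3% and 46.4% of all promoter peaks. At p 1e-05 they were found in 1 of 9 (TSFM) and 2 of 9 (TSFM and MRRF), against 20.9% and 26.5%.

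The position of the hits was then compared. An SBS hit at p 1e-05 was at most 50 bp away from the summit in 4 of 9 untreated peaks, those of MTRF1 and TUFM and both of MTRF1L, against 37.8% of all promoter peaks. In the dTAG-V1 list the peaks of MTRF1 and TUFM had one, 2 of 9, against 21.5% of all promoter peaks. Both counts of members are close to the shares of all promoter peaks. A hit at the summit did not follow the rank among the members, since the MTRF1L promoter peak at percentile 43.4 had one and the GFM2 peak at percentile 91.5 had none. MTRF1 and TUFM are thus the members at which a strong rank, an SBS hit at the summit and a summit at nearly the same base were found in both lists. Over all promoter peaks, those with an SBS hit at p 1e-05 had a median percentile of 80.6 for untreated cells and 82.7 upon ZNF143 depletion. Without such a hit, the medians were 40.3 and 39.7.

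**Figure D3:**
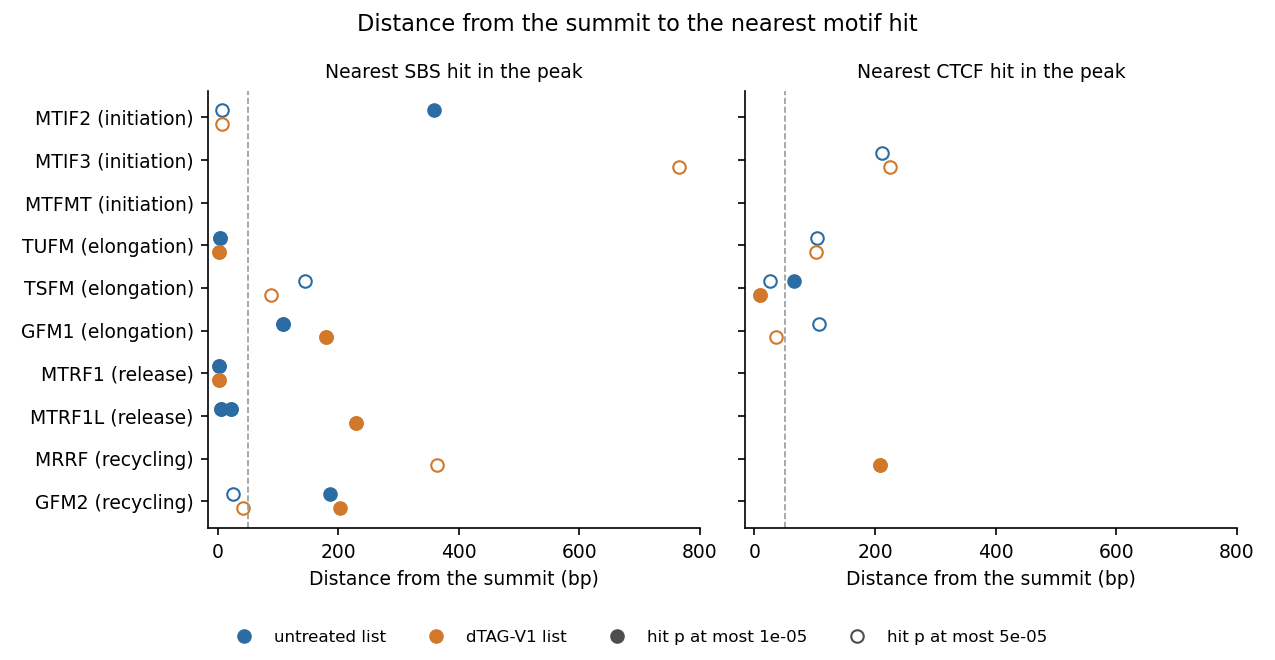
Distance in bp from the summit of each promoter peak to the nearest SBS hit (left) and CTCF hit (right) in the peak, for the untreated list in blue and the dTAG-V1 list in orange. Filled circles are hits at p 1e-05 or below, open circles hits at p 5e-05 or below, and the dashed line is at 50 bp. SBS hits at p 1e-05 or below sit at the summit of MTRF1 and TUFM in both lists. Weaker SBS hits lie within 50 bp of the summit at MTIF2 and GFM2 in both lists. The nearest CTCF hit of any strength at TSFM is 26 bp from the untreated and 9 bp from the dTAG-V1 summit.

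Some members share a short sequence at the TSS. The ETS letters CCGGAAGT, the core of the sites of ETS family transcription factors, were searched on both strands after the peak sequences had been seen. They were found in 5 of 9 untreated and 3 of 9 dTAG-V1 promoter peaks of the members, against 10.7% and 8.23% of all promoter peaks. In TUFM, GFM1 and GFM2 the letters lie on the strand of the gene, with their middle 4, 5 and 9 bp upstream of the canonical TSS. The MTRF1L letters are on the opposite strand, 12 bp upstream. Within 20 bp of the canonical TSS, these letters were thus present at 4 of the 10 members, against 2.56% of all protein-coding genes. Because the letters were picked from these same sequences, the difference is a description and cannot serve as a test. The share of all genes includes genes without a promoter peak. No share was taken for other translation genes alone, so that the letters cannot be called particular to the members.
TUFM, ETS: aacttccgCCGGAAGTgccttcca
GFM1, ETS: cctttgccCCGGAAGTgctcttac
GFM2, ETS: gtacaccgCCGGAAGTgtggaggt
MTRF1L, ETS: gaccggaaCCGGAAGTtccggaca
The ETS letters were 242 bp from the untreated summit at TUFM, 111 bp at GFM2, 89 bp at MTRF1L and 12 bp at GFM1. At MTIF3 they were 139 bp from that summit, and 470 bp downstream of the canonical TSS. GFM1 is thus the member with these letters within 50 bp of its untreated summit. From its dTAG-V1 summit they were 60 bp away. The letters CGCATGCG of NRF1 and AAGATGGC of YY1, which were searched in the same way, were found in no member peak. Their shares of all untreated promoter peaks were 3.34% and 7.86%.

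Outside the promoter windows, the gene bodies of the members held 1 untreated peak and 0 dTAG-V1 peaks. It lay in intron 9 of MTRF1 (chr13:41222271-41222480), with a score of 30, a fold enrichment of 2.29 and rank 19990 of 20429. It contained a CTCF hit with p 7.7e-07 and no SBS hit.

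Other genes of cytosolic and mitochondrial translation gave similar counts of promoter peaks. The cytosolic counterparts, which serve the same steps on cytosolic ribosomes, had a promoter peak in the untreated list at 7 of 10 genes and in the dTAG-V1 list at 8. Of these, 3 had an untreated peak in the highest decile. GSPT1, the GTPase of cytosolic release, had a score of 215333 and rank 22, and EIF5B, the counterpart of MTIF2, had a score of 77072 and rank 380. EEF1A1, the counterpart of TUFM, had a score of 25305 and rank 1187. These 3 were named for having the highest untreated scores of their list and do not stand for the others. ETF1, the cytosolic release factor that reads the stop codon, had a score of 605 and rank 4800. GSPT2 had no untreated promoter peak, and EEF2 and EEF1A2, the paralog of EEF1A1, had none in either list. ETF1, GSPT2, EEF2 and EEF1A2 were named after their values had been seen.

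Genes of ribosome rescue, nascent chains and mRNA handling in mitochondria had a promoter peak at 8 of 11 in the untreated list and at 10 in the dTAG-V1 list. The highest untreated scores were those of LRPPRC (46155), which stabilizes mitochondrial mRNAs, PDF (8318), which removes the formyl group that MTFMT adds, and RMND1 (2645). Genes of tRNA processing and modification had one at 16 of 17 and at 17 of 17, led by GATB (169019), PRORP (117796) and GTPBP3 (4687). Genes of ribosome assembly and rRNA had one at 18 of 25 and at 21 of 25, led by ERAL1 (43269), DHX30 (32544) and NSUN4 (15503). The untreated peak held an SBS hit at p 1e-05 in 6 of 10 members and 4 of 10 cytosolic counterparts. In the rescue, tRNA and ribosome assembly lists it was 5 of 11, 10 of 17 and 14 of 25, against 24.2% of all protein-coding genes. These totals include genes without an untreated promoter peak. Among genes with such a peak, the hit was found in 6 of 8 members and 4 of 7 cytosolic counterparts. For the same lists it was 5 of 8, 10 of 16 and 14 of 18, against 4827 of 8096 protein-coding genes. The share of members with a peak was thus not set apart from that of the other lists, and no test was made between them.

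**Figure D4:**
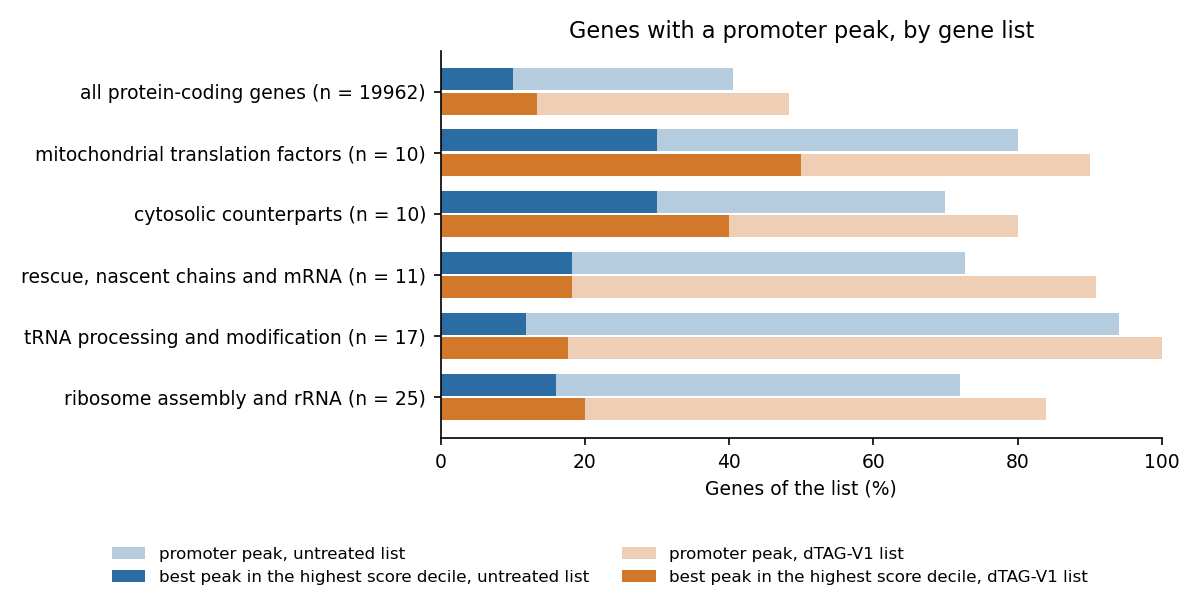
Percentage of the genes of each list with a promoter peak (pale bars) and with their best peak in the highest score decile (dark bars), for the untreated list in blue and the dTAG-V1 list in orange. All gene lists of translation lie above the 40.6% and 48.3% of all protein-coding genes, and the mitochondrial translation factors reach 80.0% and 90.0%.

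The genes most like the 3 members with the highest scores were taken as those with the smallest distance in the plane of both score percentiles. For MTRF1 these were ACP6 (distance 0.01 percentile points) and NFKBIB (0.037) among 7423 genes. For TUFM they were EDEM3 (0.049) and CRYZL1 (0.069), and for GFM2 they were CDIP1 (0.03) and ADIPOR2 (0.19), each among 7422 genes. The likeness rests on 2 values per gene.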

How the data were processed

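ChIP-seq data of the Proteintech antibody were analysed as 2 deposited peak lists, which represent 8 of the 14 samples. According to the methods, the authors mapped reads to hg38 with bwa mem, kept uniquely mapped proper pairs, removed duplicates with Picard and called narrow peaks with MACS2, and no control library is named for this call. The names of the untreated peaks refer to DMSO, whereas labels and methods describe no treatment, and the latter were followed. In the deposited lists, the score is the integer of 10 times the −log10 q-value of MACS2. The authors' fold enrichment is the ratio of the signal at the summit to the local background, and the −log10 q-value is the authors' value from the same call. The number of per-replicate columns left unused is 0.

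Peaks were placed at TSSs of GENCODE release 44 with Python 3.11.15, numpy 2.4.6, pandas 2.3.3 and pysam 0.24.0. Peaks of both lists were matched at 1 bp of overlap. Matrices for CTCF, SBS1 and SBS2 were learned from merged peaks on odd-numbered autosomes, from a starting pattern with at most 2 mismatches, in 10 iterations with a pseudocount of 0.8 and sites at p 1e-06. Hits are at p 5e-05 or 1e-05 on either strand and overlap the peak by 1 bp or more, and SBS1 and SBS2 hits can overlap each other. All p-values of hits rest on the base frequencies of the genome and not on those of promoters, where hits can be more frequent than the p-value implies. The procedure was tested on simulated random sequence with the base frequencies of the genome, into which sites drawn from the learned matrices were placed. This test does not give the rate of false hits in promoters. Distances are from the middle of a hit.

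Members and gene lists were chosen with earlier results of these data known. The named genes are the 10 members, genes that share a member's promoter peak, the 2 nearest genes of the 3 highest members, and at most 3 genes of each list by untreated score. The ETS, NRF1 and YY1 letters, distances between sites and the count of facing sites were chosen after the data had been seen. Alternatives were a −log10 q-value of at least 5, other promoter windows and TSSs, 50% overlap, other motif rules and a rank by fold enrichment.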

Additional observations from a re-analysis of the deposited data

How the results depend on the processing

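Of the counts of member genes and peaks, 48 values under an alternative stayed within 1.5 times the reported count and 18 did not. All counts of member genes with a promoter peak in the untreated list, the dTAG-V1 list or both were among the 48. SBS hits in untreated peaks (8 of 9) fell to 5 within 100 bp of the peak centre and to 4 with the fixed pattern. In dTAG-V1 peaks (9 of 9), they fell to 5 at p 1e-05, 5 within 100 bp of the centre, 4 within 50 bp of the summit and 4 with the fixed pattern. CTCF hits in untreated peaks (4 of 9) fell to 1 at p 1e-05, 2 near the centre, 1 near the summit and 1 with the fixed pattern. In dTAG-V1 peaks (5 of 9), these values were 2, 3, 2 and 1. The untreated gene body peaks (1) became 0 at a −log10 q-value of at least 5. They became 2 within 500 bp of a TSS, with coding TSSs or with the canonical TSS only, an alternative chosen after seeing the data, because the intronic peak of MTRF1L then lay outside the promoters. Ranked by fold enrichment, the canonical promoter peaks of MTRF1L moved from percentile 43.4 to 25.1 in the untreated list and from 47.4 to 30.3 in the dTAG-V1 list. The other 16 member peaks moved less.

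No paired analysis was possible because each list pools its 4 replicates. For the same reason, leaving out a replicate was not possible. Depth is unknown, and a gene without a peak, such as MTFMT, had none detectable in these lists.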
